A study of Mus musculus with 14 samples.

Results

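Among the 37310 genes of a mouse RNA-sequencing study of pancreatic β-cells and islets, 9 make up the core of the insulin and insulin-like growth factor signalling route described here. They are the receptors Insr (ENSMUSG00000005534) and Igf1r (ENSMUSG00000005533) and the adaptors Irs1 (ENSMUSG00000055980) and Irs2 (ENSMUSG00000038894). Downstream are the phosphoinositide 3-kinase (PI3K) subunits Pik3ca (ENSMUSG00000027665) and Pik3r1 (ENSMUSG00000041417), the kinases Akt1 (ENSMUSG00000001729) and Akt2 (ENSMUSG00000004056), and the transcription factor Foxo1 (ENSMUSG00000044167). They were taken by gene symbol, each matched to 1 Ensembl identifier in all 3 of the study's tables of raw counts, and all 9 had enough counts to be tested in every comparison. The study set out to follow a switch from mTORC1 to AMPK signalling in β-cell maturation and diabetes, and all 14 libraries carry the strain label C57BL/6. β-cells were wild type and came from neonates at postnatal day 6 (3 libraries) and adults at postnatal day 45 (3 libraries). Whole islets came from mice aged 8 weeks (2 TSC1 KO libraries and 2 controls whose titles begin with RC) and 4 weeks (2 Db libraries and 2 controls whose titles begin with BKS). The design text describes the knockout as one of β-cells. Not given in the sources used here are the driver of the knockout, the allele called Db, the meaning of RC and BKS and the way the β-cells were isolated.

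Insulin and the insulin-like growth factors bind the paired receptor tyrosine kinases Insr and Igf1r, which phosphorylate the Irs adaptors. Phosphorylated Irs proteins recruit PI3K, a dimer of a catalytic subunit such as the Pik3ca product and a regulatory subunit such as the Pik3r1 product, and the lipid it makes brings the Akt kinases to the membrane. Akt phosphorylates Foxo1 and holds it out of the nucleus, and it inhibits the TSC complex, of which Tsc1 is a part, so that mTORC1 becomes active. In β-cells the Irs2 branch of this route is known for its role in cell growth and survival, and Irs2 is itself a known target of FoxO factors and of the cyclic AMP responsive factor CREB.

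The Irs paralogues gave the widest contrast among the 9 genes, with Irs2 moving in Db islets and Irs1 not, so the 250 bases upstream of their RefSeq transcription starts are shown first, on the GRCm38.p6 build. Irs1 lies on the minus strand at chr1:82291440-82291689 and Irs2 on the minus strand at chr8:11008930-11009179. This build is later than those named by the submitters, and the count tables hold no coordinates. Capitals mark the E-box CACGTG and the letters TTGTTT, the core of FoxO-type sites, both looked for on both strands.
Irs1: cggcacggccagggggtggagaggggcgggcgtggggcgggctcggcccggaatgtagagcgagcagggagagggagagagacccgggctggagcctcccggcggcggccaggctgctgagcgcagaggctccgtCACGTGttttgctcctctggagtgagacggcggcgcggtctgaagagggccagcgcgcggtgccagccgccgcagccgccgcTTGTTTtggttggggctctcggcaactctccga
Irs2: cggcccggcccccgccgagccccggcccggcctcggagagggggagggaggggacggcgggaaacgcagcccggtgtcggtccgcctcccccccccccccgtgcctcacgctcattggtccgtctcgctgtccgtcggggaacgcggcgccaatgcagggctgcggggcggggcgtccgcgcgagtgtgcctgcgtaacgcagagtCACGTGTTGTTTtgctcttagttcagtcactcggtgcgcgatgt

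Both windows held each motif once. In Irs2 they abut, CACGTG starting at -44 and TTGTTT at -38 relative to the transcription start, whereas in Irs1 they stand apart, at -115 and -33. The longest run of letters that both windows share is GTCACGTGTT, 10 bases that begin at -117 in Irs1 and -46 in Irs2, and 15 of 32851 RefSeq windows of the same length hold it (0.0457%). Of all these windows 6.02% held CACGTG, 18.3% held TTGTTT, 0.794% held both, and 31 windows (0.0944%) held both with starts at most 20 bases apart. The motifs were chosen after the sequences had been seen, windows of 1 gene can overlap, and a match describes letters only. Because the shared run was picked as the longest in this pair, its share of all windows does not show how unusual the pair is. Of the members, 8 had a RefSeq window, in 13 windows in all, and no window of Igf1r, Pik3ca, Pik3r1 or Foxo1 held CACGTG or TTGTTT. The E-box was also absent from every Akt1 and Akt2 window. An Akt1 window held the TTGTTT letters at 2 places, and Akt2 windows held them at 1 and at 7 places. The latter are not all separate sites, since matches starting at -125, -121, -117, -113, -109 and -105 overlap each other. A longer FoxO-type motif, also looked for, had 0 matches in the Irs1 and Irs2 windows and 1 match in an Akt1 window, at -161.

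Library totals ranged from 3507929 gene counts in a TSC1 KO library to 17688772 in a Db library, and the 9 genes together held between 1382 and 25195 counts. The insulin genes Ins1 and Ins2 took 45.5% to 70% of gene counts in the Db and BKS control libraries, 24.5% and 27.9% in RC controls and 1.83% to 7.22% in β-cells, but 1.05% and 0.969% in TSC1 KO islets. Mitochondrially encoded genes took 39.8% and 46.8% of TSC1 KO counts against 12.4% and 9.05% in RC controls. Tsc1, the gene named as knocked out, read 31 and 34.4 CPM (counts per 1000000) in TSC1 KO islets and 25.1 and 54.1 CPM in RC controls, so the groups overlapped (log2 change -0.28 ± 0.38 SE, edgeR adjusted p = 0.638) and this check did not separate the labels. Lepr, the leptin receptor gene that the name Db usually refers to in mice, had 1 and 4 counts in Db and 11 and 2 in BKS control islets, too few to be tested. No source says that the replicates of a group are different animals, so the p-values rest on a spread between libraries that may be technical.

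CPM, the unit of all levels, is the count relative to the library total as scaled by TMM within each table. A gene was called higher or lower when its adjusted p from edgeR's quasi-likelihood test, adjusted by Benjamini-Hochberg over every gene tested, was under 0.05. Changes are fitted log2 fold changes with their standard errors (SE). Unless stated otherwise, levels of different genes are compared as CPM per kilobase of the longest annotated transcript.

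**Figure D1:**
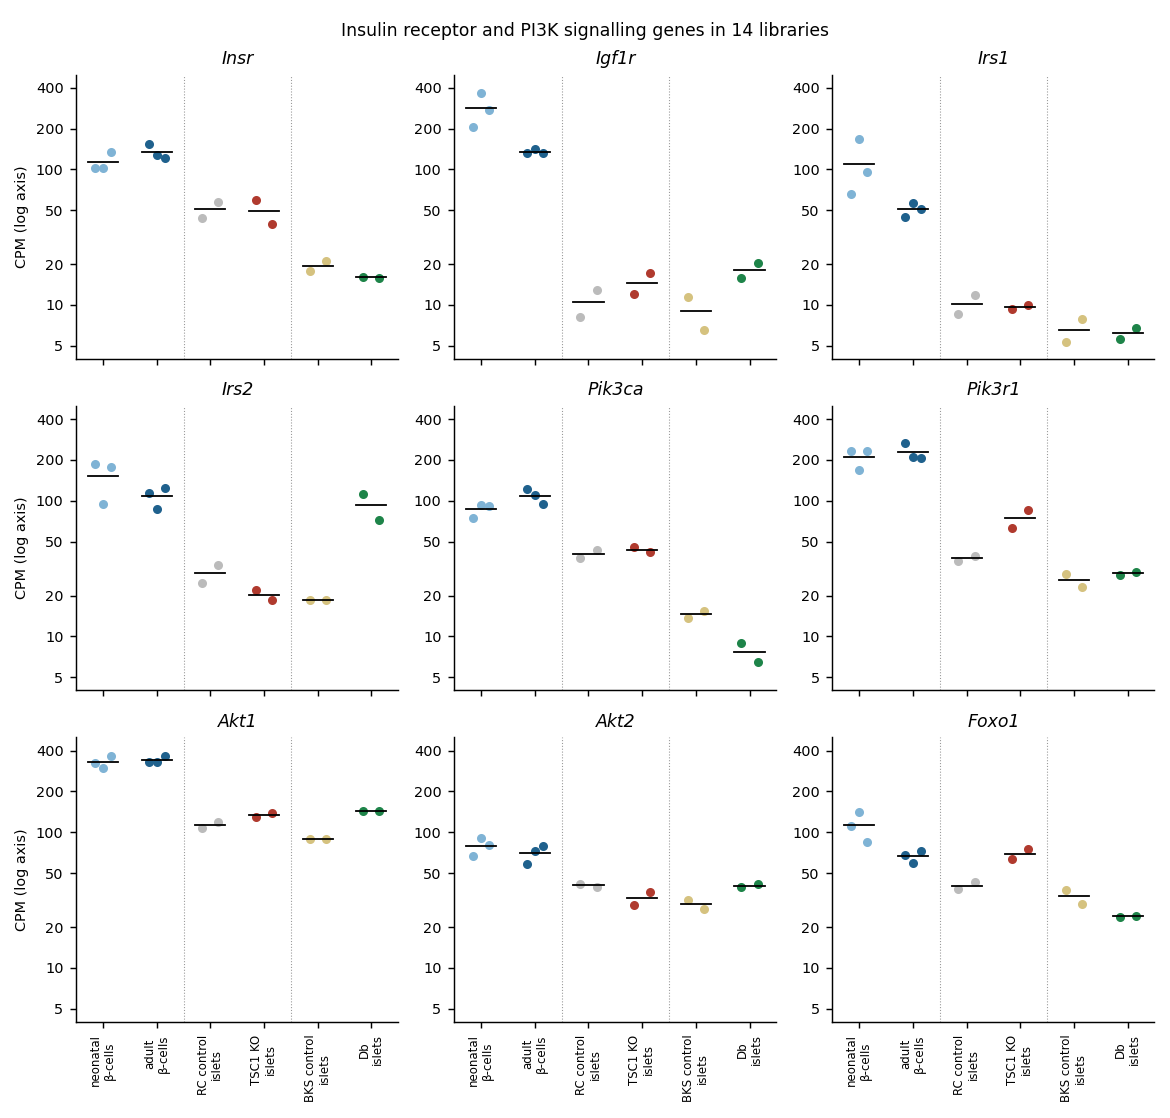
CPM of the 9 genes (log axis) in each of the 14 libraries, in 6 groups, with each point a library, the black line the group mean and dotted lines between the 3 separately scaled tables. Irs2 at 113 and 71.7 CPM in Db islets stands above 18.6 and 18.7 in BKS controls, and Igf1r and Irs1 are higher in neonatal than in adult β-cells in every library.

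Akt1, which encodes the more widely expressed of the Akt kinases, had the highest level per kilobase of the 9 in 14 of 14 libraries, from 33.2 CPM per kb in a BKS control to 136 in an adult library. The second place went with the group: it was held by Pik3r1, the p85α regulatory subunit, in 7 libraries, namely both TSC1 KO libraries and all β-cell libraries except neonatal replicate 3a, where Igf1r held it. Akt2, the Akt kinase best known from glucose uptake in muscle and fat, held it in 4, the RC and BKS control islets, and Irs2 in 2, the Db islets. Irs1 had the lowest level in 8 libraries, and its highest level was 18.3 CPM per kb, in neonatal replicate 3a.

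By CPM per kilobase, each member had its highest mean level in adult or neonatal β-cells. Foxo1 was lowest in Db islets (2.76 and 2.79 CPM per kb), and TSC1 KO islets (7.34 and 8.65) overlapped adult β-cells (6.86 to 8.35) and lay below neonatal ones (9.85 to 16.3). The tables were scaled separately, so the order of groups is a description and was not tested. For Igf1r, neonatal β-cells (17.8 to 32.2 CPM per kb) lay above adult ones (11.5 to 12.4), and these above all islets (0.574 to 1.78). The islet groups stood in the order Db, TSC1 KO, RC control and BKS control, each overlapping the next. For Irs2 the order was neonatal (15.1 to 29.4), adult (13.9 to 19.6) and Db (11.3 to 17.8), each overlapping the next, and then a gap to RC controls (3.92 and 5.33), TSC1 KO (2.91 and 3.5) and BKS controls (2.95 and 2.96). Db islets were thus the only islet group whose Irs2 level overlapped that of β-cells. Because insulin takes up so much of the islet libraries, CPM was also taken over the counts outside insulin and mitochondrial genes alone, where the 9 genes summed to 1277 to 1724 in β-cell and 596 to 824 in islet libraries. Some placements differed on that scale. Irs2 had its highest mean in Db islets (235 and 154), with neonatal cells at 211, 106 and 198 and adult cells at 124, 93.4 and 134, while the other 8 members kept their highest mean in β-cells. Foxo1 in TSC1 KO islets (105 and 122) lay above adult cells (63.4 to 78.2) and inside the neonatal range (96 to 157), and remained lowest in Db islets (49.8 and 51.9). Igf1r in Db islets (32.9 and 43.5) no longer overlapped TSC1 KO islets (20 and 27.9).

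The first comparison asks how these transcripts differ between neonatal and adult β-cells. Adult cells had less Igf1r, Irs1 and Foxo1 mRNA than neonatal cells, by 2.08-, 2.17- and 1.69-fold, while no member passed the test in the other direction. Of the 9, 3 were called against 6.98% of 14304 genes tested, and all 3 were lower, where 3.60% of all genes were called lower and 3.38% higher. Their median absolute log2 fold change was 0.34, against 0.46 over all genes. Groups did not overlap for 4 members, against 27.4% of all genes.

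Igf1r, the receptor for the insulin-like growth factors, read 131, 142 and 133 CPM in adult cells and 204, 367 and 275 CPM in neonatal ones. The adult libraries lay close together and all below the neonatal libraries. The log2 change was -1.06 ± 0.20 SE (edgeR adjusted p = 0.00428), and the call held under all 13 alternative settings tried (adjusted p 2.06e-06 to 0.0292). Insr, which binds insulin with the higher affinity, read 155, 127 and 122 CPM in adult and 103, 103 and 135 CPM in neonatal cells, with overlapping groups and a log2 fold change of 0.25 ± 0.19 SE (edgeR adjusted p = 0.531).

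The balance of the receptor transcripts therefore differed between the ages. Per kilobase, Igf1r stood at 0.692, 0.91 and 0.898 of Insr in adult cells and at 1.62, 2.92 and 1.67 of it in neonatal cells. On that scale Insr was the more abundant in every adult library and Igf1r in every neonatal one. The order in adults rests on the lengths used (11.4 kb for Igf1r and 9.36 kb for Insr). Before division by length, Igf1r exceeded Insr in adult replicates 2 (142 against 127 CPM) and 3 (133 against 122). The mean log2 ratio was -0.27 ± 0.22 (SD, n = 3) in adults and 1.00 ± 0.48 (SD, n = 3) in neonates, a difference of -1.27 (two-sided exact permutation p = 0.1, the smallest that 3 against 3 libraries allow, and 0.5 after adjustment over the 12 ratio tests made).

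Irs1 read 44.7, 56.3 and 50.9 CPM in adult and 65.6, 167 and 95.9 CPM in neonatal cells. Neonatal replicate 3a was far above the others, but all neonatal libraries exceeded all adult ones. The log2 change was -1.11 ± 0.29 SE (edgeR adjusted p = 0.0283; alternatives 0.000145 to 0.139). The call was lost with limma-voom (0.0532), without adult replicate 1, 2 or 3 (0.139, 0.0885 and 0.109) and without neonatal replicate 3a, where the log2 fold change was -0.67 (0.0798).

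Irs2 pointed the same way without passing the test, at 114, 87.6 and 124 CPM in adult and 186, 95.2 and 176 CPM in neonatal cells. Here neonatal replicate 3a, the library highest in Irs1, was the lowest of its group and fell inside the adult range (log2 change -0.49 ± 0.24 SE, edgeR adjusted p = 0.256; alternatives 0.01 to 0.756). Without that library Irs2 passed the test, with a log2 fold change of -0.74 and an adjusted p of 0.01. The ratio of Irs2 to Irs1 per kilobase was 3.68, 2.25 and 3.53 in adult and 4.1, 0.823 and 2.65 in neonatal cells, so neonatal replicate 3a was the only one of the 14 libraries with more Irs1 than Irs2, and the difference between the ages was within the spread (exact permutation p = 0.7).

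Foxo1, a factor that restrains growth genes when Akt is inactive, read 68.4, 59.5 and 72.3 CPM in adult and 112, 141 and 85.4 CPM in neonatal cells. Every adult library was below every neonatal one. The log2 change was -0.76 ± 0.22 SE (edgeR adjusted p = 0.0492; alternatives 0.0166 to 0.229), a call so near the threshold that it was lost in 7 of 13 alternatives: limma-voom (0.0597), GC and length trends removed (0.0502), and without adult replicate 1, 2 or 3 or neonatal replicate 1 or 3a (0.094 to 0.229).

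The PI3K and Akt members showed no change that passed the test. Pik3ca, which encodes the p110α catalytic subunit, read 122, 111 and 93.9 CPM in adult and 74.7, 92.9 and 91.6 CPM in neonatal cells, not overlapping but with a log2 fold change of only 0.34 ± 0.20 SE (edgeR adjusted p = 0.373). For Pik3r1 (208 to 266 against 168 to 233 CPM), Akt1 (329 to 365 against 299 to 362) and Akt2 (58.4 to 79.6 against 66.8 to 90.3) the groups overlapped and edgeR adjusted p-values were 0.741 to 0.892.

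Around the 9 genes, 52 further genes of the pathway were listed by role, of which 47 could be tested: 3 were called higher and 3 lower, with a median log2 fold change of -0.14 against -0.03 over all genes. Over all genes tested, 3.38% were called higher and 3.60% lower. Grb10, an adaptor that binds both receptors and inhibits their signalling, read 53.8, 38.3 and 62.8 CPM in adult and 187, 244 and 183 CPM in neonatal cells. It was 3.96-fold lower in adults (-1.99 ± 0.22 SE on the log2 scale, edgeR adjusted p = 4.07e-05), with no overlap and under all alternatives. Foxo6, a FoxO factor best known from brain, was lower too, at 6.22, 11.9 and 5.28 CPM against 23.5, 50 and 57.5 (-2.48 ± 0.42 SE, edgeR adjusted p = 0.0021). Igf2, a ligand of Igf1r, read 1.67, 1.5 and 4.08 CPM in adults and 13.1, 2.56 and 38.2 CPM in neonates, overlapping groups whose fold rested on replicate 3b (-2.89 ± 0.82 SE, edgeR adjusted p = 0.0489, with -1.70 and 0.342 without that library, 0.0741 to 0.213 without any 1 adult library or neonatal replicate 1, and alternatives up to 0.38).

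Among the genes higher in adults, Pik3r3, the p55γ regulatory subunit, read 80.9, 91.8 and 50.1 CPM against 39.2, 37.3 and 30.4 (1.06 ± 0.27 SE, edgeR adjusted p = 0.024; alternatives 0.00293 to 0.168, lost without adult replicate 1 or 2 or neonatal replicate 3b). The other called genes were Ins1 and Ins2, both higher (edgeR adjusted p = 0.00731 and 0.000976). They are close copies between which reads can be misassigned, and the Ins1 call was lost without neonatal replicate 3a (0.0657), with limma-voom (0.101) and with GC and length trends removed (0.0647), that of Ins2 with limma-voom (0.0607). Foxo3, Foxo4, Pik3cb, Pik3r2 and Insrr were not called (edgeR adjusted p 0.252 to 0.838).

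Of 19 genes listed as linked to FoxO factors, 16 were tested (median log2 fold change 0.02) and 2 were called, where 6.98% of all genes were. Both were higher in adults: Cited2, a transcriptional co-regulator (1.34 ± 0.29 SE, edgeR adjusted p = 0.00989), and the ubiquitin ligase gene Fbxo32 (1.24 ± 0.33 SE, edgeR adjusted p = 0.0313). Neither call held without adult replicate 3 (0.0548 and 0.0929), and that of Fbxo32 was also lost without adult replicate 1 (0.21) or neonatal replicate 1 (0.0595) and with library size only (0.0568). The 10 β-cell markers summed to 55081 to 90900 CPM in adult and 24403 to 33545 CPM in neonatal libraries. Markers of other endocrine cells (10) summed to 426 to 2192 CPM in adult and 1174 to 2342 CPM in neonatal libraries. In any β-cell library, 8 endothelial markers summed to at most 32.4 CPM, 8 immune markers to at most 24 CPM and 10 acinar markers to at most 52.5 CPM. Duct markers (9) summed to 484 to 529 CPM in adult and 666 to 735 CPM in neonatal cells, and mesenchymal markers (8) reached 197 CPM in neonatal replicate 3b. Their part in the results was not tested.

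**Figure D2:**
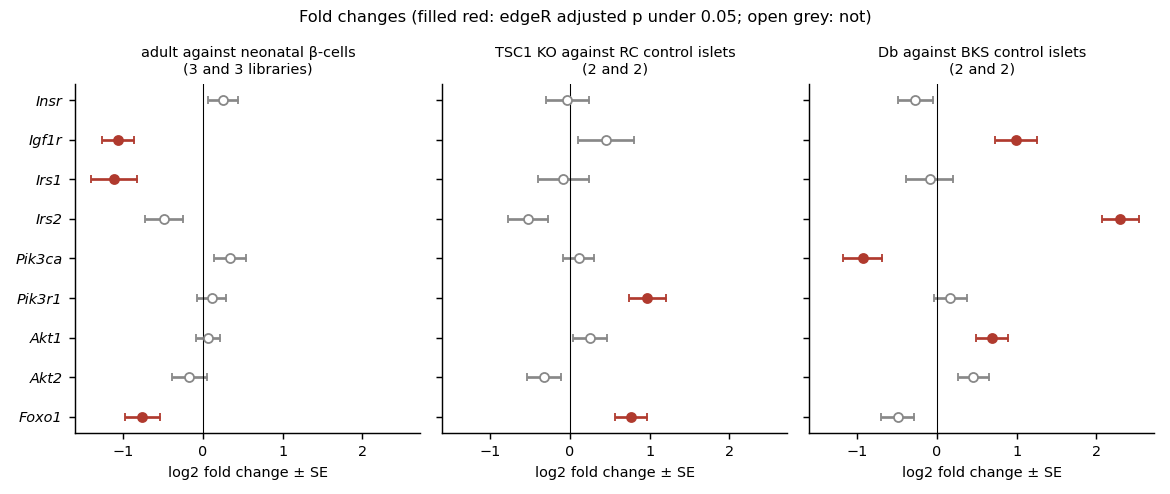
Log2 fold change ± SE (x axis) of each of the 9 genes in the 3 comparisons, filled red where edgeR's adjusted p was under 0.05. Calls are 3 lower in adult β-cells, 2 higher in TSC1 KO islets, and 3 higher and 1 lower in Db islets, with Irs2 at 2.30 in Db islets the largest.

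The next comparison is of islets labelled as lacking Tsc1, a subunit of the complex that Akt inhibits. TSC1 KO islets had 1.96-fold more Pik3r1 and 1.71-fold more Foxo1 mRNA than RC control islets, and no member was called lower. The 2 calls among 9 stand against 18.6% of 14515 genes tested, and 8.63% of all genes were called higher. Groups did not overlap for 5 members, against 67.7% of all genes, and the members' median absolute log2 fold change was 0.32 against 0.57 over all genes. In islet RNA, fewer cells of a type and less RNA per cell cannot be told apart.

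Pik3r1 read 62.5 and 86 CPM in TSC1 KO and 36.2 and 39.3 CPM in RC control islets, with both KO libraries above both controls. The log2 change was 0.97 ± 0.23 SE (edgeR adjusted p = 0.037; alternatives 0.014 to 0.254), and the call was lost with library size as the only scaling (0.71, adjusted p = 0.0723), with GC and length trends removed (0.0662) and without TSC1 KO replicate 1 or 2 (0.124 and 0.254). The catalytic subunit gene Pik3ca did not follow, at 45.4 and 41.8 CPM against 37.9 and 43.3 (0.11 ± 0.19 SE, edgeR adjusted p = 0.732). Per kilobase there was 1.72 and 2.58 times as much Pik3r1 as Pik3ca in TSC1 KO islets and 1.2 and 1.14 times as much in RC controls, a difference of 0.85 in the log2 ratio (exact permutation p = 0.333, the smallest that 2 against 2 allow).

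Foxo1 read 63.6 and 74.9 CPM in TSC1 KO and 37.9 and 43 CPM in RC control islets, again without overlap. Its log2 change was 0.77 ± 0.20 SE (edgeR adjusted p = 0.0471; alternatives 0.0354 to 0.296). The call was lost in 7 of 12 alternatives, among them library size only (0.51, adjusted p = 0.141), DESeq2 (0.0907), and without RC control replicate 1 (0.0503) or TSC1 KO replicate 1 or 2 (0.177 and 0.296). Without either KO library edgeR called 0 genes of any kind, although 3535 and 3061 genes had an unadjusted p under 0.05, and no other tool was run on those 3 libraries. All calls in this comparison therefore need both KO libraries.

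The receptors and adaptors differed little. Insr read 59.9 and 39.5 CPM in TSC1 KO and 44.1 and 57.7 CPM in RC control islets, and Igf1r 12.1 and 17.1 against 8.22 and 12.9, with overlap in both. Irs1 overlapped too, at 9.32 and 10 CPM against 8.53 and 11.9, and the fitted log2 changes of Insr and Irs1 were -0.03 and -0.08. Irs2 lay lower without overlap, at 22.1 and 18.4 CPM against 24.8 and 33.7, yet did not pass the test (-0.52 ± 0.25 SE, edgeR adjusted p = 0.185; alternatives 0.0684 to 0.558). Akt1 (130 and 138 against 108 and 118 CPM; 0.25 ± 0.21 SE, adjusted p = 0.435) and Akt2 (28.9 and 36.1 against 41.7 and 39.3; -0.32 ± 0.21 SE, adjusted p = 0.316) were likewise separate but not called by edgeR.

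Of the pathway list, 51 genes were tested in this comparison, with 7 called higher and 4 lower and a median log2 fold change of 0.37 against 0 over all genes. Over all genes tested, 8.63% were called higher and 10.0% lower. Insrr, the insulin receptor related receptor, fell the most of the receptors, from 641 and 752 CPM in RC controls to 59.2 and 20.4 CPM (17.4-fold, log2 change -4.12 ± 0.57 SE, edgeR adjusted p = 0.0135). Igf1 rose from 5.06 and 1.91 CPM to 25.9 and 54.8 CPM (3.52 ± 0.59 SE, edgeR adjusted p = 0.0214). Gab1, a docking adaptor related to the Irs proteins, rose from 22.4 and 17.4 to 62.7 and 75.2 CPM (1.79 ± 0.23 SE, edgeR adjusted p = 0.012).

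Among PI3K genes, Pik3ap1, an adaptor that carries PI3K to receptors in B cells, read 188 and 236 CPM against 35.5 and 7.36 (3.31 ± 0.75 SE, edgeR adjusted p = 0.0433) and the class II catalytic subunit Pik3c2b 34.3 and 24.1 against 9.95 and 10.4 (1.52 ± 0.26 SE, edgeR adjusted p = 0.0195). Of the lipid phosphatases, Inpp5d rose (1.00 ± 0.23 SE, edgeR adjusted p = 0.0356) and Inpp4a fell (-1.27 ± 0.29 SE, edgeR adjusted p = 0.0348). Tbc1d4, an Akt substrate in vesicle traffic, was 29.8 and 33.1 CPM against 7.9 and 9.12 (1.88 ± 0.23 SE, edgeR adjusted p = 0.0117). Foxo3 moved the same way as Foxo1, at 93.2 and 119 CPM against 50.6 and 62.5 (0.91 ± 0.23 SE, edgeR adjusted p = 0.0465), and Foxo4 did not pass at 37.1 and 31.4 CPM against 26.1 and 22.4 (0.50 ± 0.21 SE, edgeR adjusted p = 0.148). Ins1 and Ins2 were the other genes called lower. With library size only the calls of Pik3ap1, Inpp5d and Foxo3 were lost (adjusted p = 0.0509, 0.0918 and 0.106). Pik3ap1 was also lost with no filter on low counts (0.207) and with GC and length trends removed (0.0584), Foxo3 with the latter (0.0504) and Inpp5d with DESeq2 (0.0604). A replicate block left these 3 and Igf1 uncalled (0.0561 to 0.0715). Grb10, Pik3cb, Pik3r2 and Pik3r3 were not called (edgeR adjusted p 0.089 to 0.498).

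FoxO-linked genes were called higher for Tsc22d3, a glucocorticoid-induced regulator (472 and 321 CPM against 126 and 77.2; 1.96 ± 0.37 SE), Klf15 (1.5 ± 0.28 SE) and Bcl6 (1.43 ± 0.32 SE), all transcription regulators, and lower for Cited2 (24.5 and 22.7 CPM against 61.6 and 53; -1.28 ± 0.20 SE), among 16 tested with a median log2 fold change of 0.23 (edgeR adjusted p 0.0165 to 0.0335). Among all genes tested in this comparison 18.6% were called. The Bcl6 call was also lost without RC control replicate 2 (0.0506) and with library size only (0.0549). Marker genes of several cell types differed in level between the same libraries. The 10 β-cell markers summed to 12857 and 13364 CPM in TSC1 KO islets and to 235001 and 265505 CPM in RC controls, 8 endothelial markers to 5156 and 3814 against 2474 and 2726, 9 duct markers to 2365 and 3210 against 1088 and 357, and 8 mesenchymal markers to 828 and 4430 against 669 and 280. Markers of other endocrine cells (10) summed to 7528 and 2931 CPM against 32933 and 27077, acinar markers (10) to 2893 and 1159 against 1845 and 2710, and immune markers (8) to 179 and 179 against 213 and 158. No marker of these 7 lists was at 0 in all libraries of either group, and the part of these cells in the changes of Pik3r1, Foxo1 and the pathway genes was not tested.

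The last pairwise comparison asks how the route looked in Db islets at 4 weeks. Db islets had 4.93-fold more Irs2, 1.99-fold more Igf1r and 1.61-fold more Akt1 mRNA than BKS control islets, and 1.90-fold less Pik3ca. That is 4 of 9 genes called, against 48.2% of 14369 genes tested (24.3% higher, 23.9% lower), so the share called is near the background. Irs2 had the largest fold change of the 9. Groups did not overlap for 7 members, against 74.7% of all genes, and the median absolute log2 fold change was 0.49 against 0.66 over all genes.

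Irs2 read 113 and 71.7 CPM in Db islets and 18.6 and 18.7 CPM in BKS controls. Both Db libraries were far above the controls, which were almost level with each other. The log2 change was 2.30 ± 0.23 SE (edgeR adjusted p = 8.39e-09), and it held under all 12 alternatives, with log2 fold changes of 1.77 to 2.61 and adjusted p-values of 1.15e-25 to 1.95e-05. As CPM over counts outside insulin and mitochondrial genes alone, Irs2 stood at 235 and 154 in Db and 49.8 and 49.1 in BKS control islets, a 3.93-fold difference of the means against 4.93-fold in the fit.

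Irs1 read 5.58 and 6.74 CPM in Db and 5.35 and 7.83 CPM in BKS control islets, with the Db libraries inside the control range (log2 change -0.09 ± 0.29 SE, edgeR adjusted p = 0.824). The ratio of Irs2 to Irs1 per kilobase was thus 29.2 and 15.4 in Db islets and 5.03 and 3.46 in BKS controls. Db islets had the highest ratios of all 14 libraries, where the others ran from 0.823 to 5.03. The difference between Db and BKS control islets was 2.34 on the log2 scale (exact permutation p = 0.333, the smallest that 2 against 2 allow). Both upstream windows shown above hold the E-box and the TTGTTT letters, and of the pair Irs2 alone was called in Db islets. A part of these letters in that difference was not tested.

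**Figure D3:**
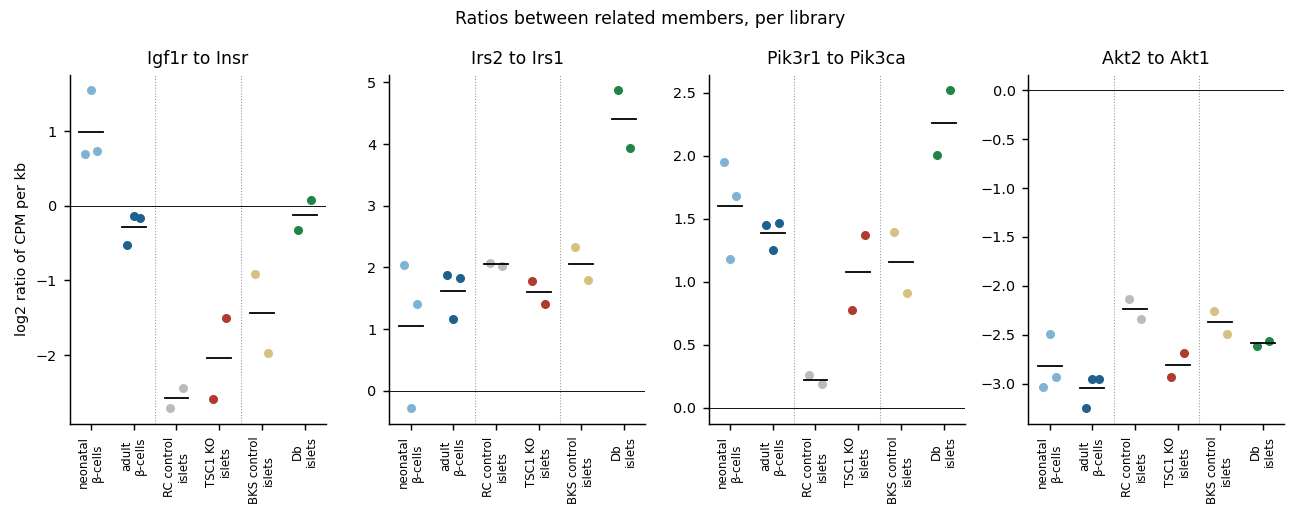
Log2 ratio of CPM per kilobase (y axis, scale differing between panels) for 4 pairs of related members in each library, with points for libraries and lines for group means. The ratio of Irs2 to Irs1 averages 4.41 in Db islets against 2.06 in BKS controls, and that of Igf1r to Insr 1.00 in neonatal against -0.27 in adult β-cells.

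Igf1r read 15.8 and 20.3 CPM in Db and 11.5 and 6.55 CPM in BKS control islets. Its groups did not overlap although the controls differed between themselves, and the log2 change was 0.99 ± 0.26 SE (edgeR adjusted p = 0.00284; 12 of 12 alternatives called it, 1.32e-05 to 0.041). Insr read 16.2 and 15.8 CPM against 17.7 and 21.1, below the controls but not called (-0.27 ± 0.22 SE, edgeR adjusted p = 0.313), and with library size as the only scaling its sign turned (0.05). Over counts outside insulin and mitochondrial genes, without TMM scaling, Insr read 33.7 and 33.8 against 47.3 and 55.1, with the mean 1.52-fold lower. On that scale Igf1r read 32.9 and 43.5 against 30.6 and 17.1, a 1.6-fold difference against 1.99-fold in the fit. Igf1r stood at 0.8 and 1.05 of Insr per kilobase in Db islets and at 0.532 and 0.255 in BKS controls, a log2 difference of 1.32 (exact permutation p = 0.333).

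Akt1 read 144 and 144 CPM in Db and 89.6 and 89.3 CPM in BKS control islets. Akt1 was almost level between the libraries of each group, and the log2 fold change of 0.69 ± 0.20 SE (edgeR adjusted p = 0.00538) was called in 12 of 12 alternatives (0.000801 to 0.0491). Over counts outside insulin and mitochondrial genes, without TMM scaling, Akt1 read 300 and 308 against 240 and 234, a 1.28-fold difference against 1.61-fold in the fit. Akt2 was higher without overlap, at 39.6 and 41.3 CPM against 31.7 and 27, but fell short of the threshold (0.46 ± 0.20 SE, edgeR adjusted p = 0.0621). It passed with no filter on low counts (0.0276) and without BKS control replicate 1 (0.0231), and its sign turned with GC and length trends removed (-0.05; alternatives up to 0.855). Over counts outside insulin and mitochondrial genes its groups overlapped (82.4 and 88.6 against 84.8 and 70.6).

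Pik3ca read 8.9 and 6.5 CPM in Db and 13.7 and 15.5 CPM in BKS control islets, with no overlap. The log2 change was -0.93 ± 0.25 SE (edgeR adjusted p = 0.00345; alternatives 0.00257 to 0.303). The call was lost with library size only (-0.61, adjusted p = 0.14), without Db replicate 2 (-0.70, 0.1) and with GC and length trends removed (-0.30, 0.303). Its partner Pik3r1 read 28.6 and 29.8 CPM against 28.8 and 23.2 (0.17 ± 0.21 SE, edgeR adjusted p = 0.534), so there was 4.03 and 5.75 times as much Pik3r1 as Pik3ca per kilobase in Db islets and 2.63 and 1.88 times as much in BKS controls (difference 1.12 on the log2 scale, exact permutation p = 0.333).

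Foxo1 read 23.9 and 24.2 CPM in Db and 37.8 and 29.5 CPM in BKS control islets, lower without overlap and just outside the threshold (-0.49 ± 0.21 SE, edgeR adjusted p = 0.0555; alternatives 0.0157 to 0.654). It was called only without BKS control replicate 2, at -0.62 and 0.0157. Exons of Foxo1, Irs1 and Irs2 overlap genes on the opposite strand in a later annotation (Gm20402, Gm9747 and 9530052E02Rik), and no source used here gives the strand setting of the counting, so reads of the partners cannot be told apart with certainty. Gm9747 read at most 3.73 CPM in any library and Gm20402 9.45 to 17.3 CPM in the Db and BKS control libraries and at most 4.35 in the others. 9530052E02Rik had no row in the tables.

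Of the pathway list, 49 genes were tested in Db islets, with 5 called higher and 11 lower and a median log2 fold change of -0.02 against -0.03 over all genes. The 16 calls among 49 stand against 48.2% of all genes tested. Of these 16, 5 were called under every alternative: Insrr, Igf2r, Pik3r5, Ptpn1 and Trib3. Ptpn1 encodes the phosphatase PTP1B, which dephosphorylates the insulin receptor, and read 93.9 and 88.6 CPM in Db and 26.2 and 30.9 CPM in BKS control islets (3.20-fold, log2 change 1.68 ± 0.21 SE, edgeR adjusted p = 2.12e-07). Trib3, a pseudokinase that binds Akt and is induced by stress, read 13.9 and 10.5 CPM against 4.39 and 4.11 (1.52 ± 0.28 SE, edgeR adjusted p = 7.81e-05).

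Pik3r5, a regulatory subunit of the G protein coupled PI3Kγ, read 9.12 and 9.02 CPM against 1.5 and 1.67 (2.52 ± 0.34 SE, edgeR adjusted p = 8.63e-07). Igf2r, which clears Igf2 from the surface, read 82.7 and 94.7 CPM against 36.4 and 28.6 (1.44 ± 0.21 SE, edgeR adjusted p = 2.45e-06). Lower instead was Insrr, which read 65.6 and 117 CPM against 240 and 282 (-1.51 ± 0.24 SE, edgeR adjusted p = 1.79e-05).

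The other 11 calls were each lost without at least 1 library: 10 of them without Db replicate 2 (adjusted p 0.0635 to 0.345), 4 without BKS control replicate 1 (0.086 to 0.337), 3 without BKS control replicate 2 (0.0644 to 0.608) and 3 without Db replicate 1 (0.114 to 0.137). With library size only, 9 of the 11 were lost, all but Grb14 and Rictor. Lower were Rictor, the defining subunit of mTORC2 (-1.26 ± 0.34 SE), the Akt-related kinases Sgk3 (-1.11 ± 0.36 SE) and Sgk1 (-0.93 ± 0.33 SE), the class II subunit Pik3c2a (-1.08 ± 0.30 SE), Gab1 (-1.04 ± 0.31 SE), the phosphatases Phlpp2 (-0.86 ± 0.32 SE) and Ptpn2 (-0.85 ± 0.32 SE), the PI3K inhibitor Pik3ip1 (-0.75 ± 0.31 SE), Foxo6 (-0.71 ± 0.21 SE) and Ins2 (-0.93 ± 0.33 SE), and higher was the inhibitory adaptor Grb14 (0.58 ± 0.22 SE; edgeR adjusted p 0.00336 to 0.044). Sgk1 fell to -0.17 without BKS control replicate 2 (adjusted p = 0.608), and Foxo6 turned to 0.15 and Ptpn2 to -0.05 with GC and length trends removed (0.568 and 0.902). Grb10, Foxo3, Foxo4, Pik3cb, Pik3r2 and Pik3r3 were not called (edgeR adjusted p 0.0807 to 0.892).

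**Figure D4:**
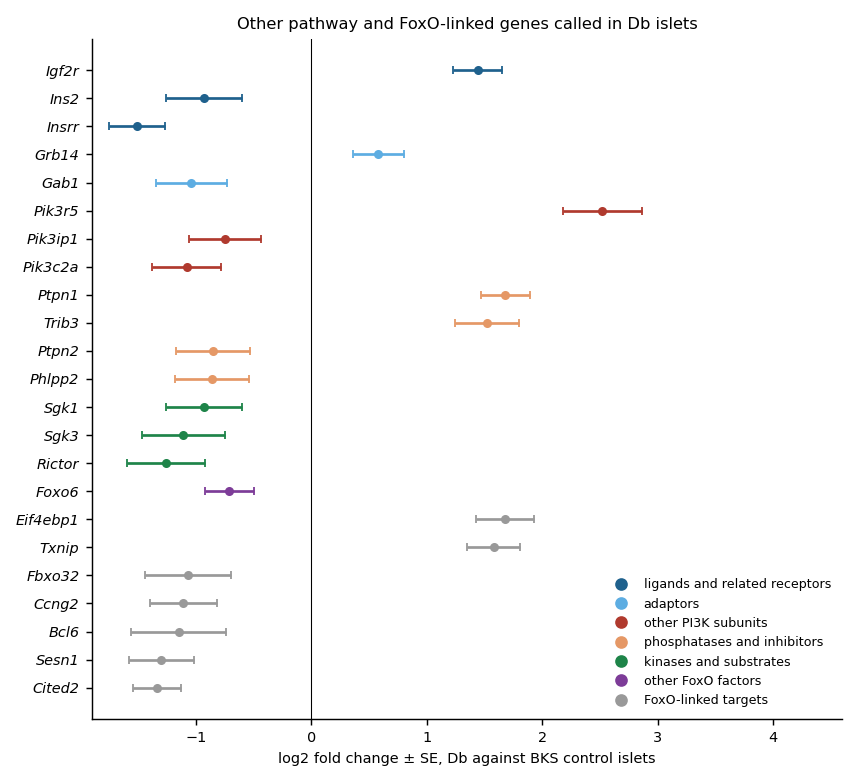
Log2 fold change ± SE (x axis), Db against BKS control islets, of the 16 pathway and 7 FoxO-linked genes called by edgeR, coloured by role. Among all genes tested in this comparison 48.2% were called. Of the pathway genes 5 lie to the right of 0 and 11 to the left, and Pik3r5 at 2.52, Ptpn1 at 1.68 and Trib3 at 1.52 lie farthest right among them.

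Of the FoxO-linked genes, 16 were tested in Db islets, 2 called higher and 5 lower, with a median log2 fold change of -0.24. Among all genes tested in this comparison 48.2% were called. Txnip, an inhibitor of thioredoxin that glucose also induces, read 248 and 321 CPM against 72.1 and 119 (1.58 ± 0.23 SE, edgeR adjusted p = 6.11e-06), and Eif4ebp1, the translation repressor 4E-BP1, 26.7 and 19.1 against 7.07 and 7.19 (1.68 ± 0.25 SE, edgeR adjusted p = 3.96e-06). Lower were Cited2 (29.2 and 35.7 CPM against 71.2 and 93.6; -1.34 ± 0.21 SE, edgeR adjusted p = 7.28e-06), the stress-induced Sesn1 (-1.30 ± 0.28 SE, edgeR adjusted p = 0.000329), Bcl6 (-1.15 ± 0.41 SE), the cyclin gene Ccng2 (-1.11 ± 0.29 SE) and Fbxo32 (-1.07 ± 0.37 SE; edgeR adjusted p 0.00213 to 0.0206 for these 3). The last 3 calls depended on single libraries: Ccng2 was lost without BKS control replicate 2 (0.061), Bcl6 without BKS control replicate 1 or either Db library (0.0968 to 0.359), and Fbxo32 without BKS control replicate 1 or Db replicate 2 (0.232 and 0.241). All 3 were also lost with library size only. These genes have other regulators too, so the list does not measure Foxo1 activity.

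Marker genes of other cell types also differed in level between Db and BKS control islets. Summed over 10 acinar markers, Db libraries read 289 and 126 CPM and BKS controls 20.9 and 16.7. Most of the Db sum was Ctrb1, with means of 138 CPM in Db and 2.64 CPM in BKS control islets. Ptf1a was at 0 in both controls and averaged only 0.0553 CPM in Db islets. Of the acinar markers, 5 of 7 tested were called higher in Db islets, where 24.3% of all genes were. In TSC1 KO islets 0 of 8 were called, where 8.63% of all genes were called higher and the acinar sums were larger, at 2893 and 1159 CPM. Markers of other endocrine cells summed to 9978 and 7632 CPM against 3879 and 7610, and among them the somatostatin gene Sst was 2.97-fold higher in Db islets (edgeR adjusted p = 7.25e-06). Erythroid markers (6) summed to 38.6 and 59.3 against 18.1 and 10.3 CPM, with 4 of 5 tested called higher, and immune markers to 20.9 and 21 against 21.8 and 23.6. Duct markers summed to 858 and 815 against 380 and 371 CPM, mesenchymal markers to 526 and 496 against 172 and 274, and endothelial markers to 617 and 615 against 896 and 841. Most of the duct sum was Krt7, with means of 660 CPM in Db and 194 CPM in BKS control islets. Of 8 duct markers tested, 2 were called higher and 3 lower in Db islets. Of 8 endothelial markers tested, 2 were called higher and 4 lower. The 10 β-cell markers summed to 494645 and 427662 CPM in Db and 599938 and 920478 in BKS control islets. The part of these differences in the results for the 9 genes was not tested.

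A single fit over the 8 islet libraries compared the effects in TSC1 KO and Db islets, as the log2 fold change in TSC1 KO islets less that in Db islets. The effects differed for Irs2, Foxo1, Akt2 and Pik3ca, 4 of 9 genes, against 31.8% of 15702 genes tested. For Irs2 the difference was -2.91 ± 0.37 SE (edgeR adjusted p = 0.000173; 16 of 16 alternatives, 4.37e-16 to 0.00294), with Irs2 4.93-fold higher in Db islets and not called in TSC1 KO islets. Foxo1 differed by 1.17 ± 0.29 SE (edgeR adjusted p = 0.00967; alternatives 0.00722 to 0.204), as it was called higher in TSC1 KO islets and lay lower in Db islets. That call was lost with library size only (0.71, adjusted p = 0.204) and without TSC1 KO replicate 2 (1.00, 0.062).

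Akt2 differed by -0.87 ± 0.29 SE (edgeR adjusted p = 0.036; alternatives 0.0183 to 0.429) and Pik3ca by 0.94 ± 0.32 SE (edgeR adjusted p = 0.0407; alternatives 0.0306 to 0.696), but these calls were lost in 7 and 11 of 16 alternatives. For Akt2 these included leaving out BKS control replicate 2, Db replicate 1 or 2 or TSC1 KO replicate 1 (0.0723 to 0.119). For Pik3ca they included leaving out BKS control replicate 1 or 2, Db replicate 2, RC control replicate 1 or TSC1 KO replicate 1 or 2 (0.0657 to 0.171). Pik3r1, called only in TSC1 KO islets, did not differ between the effects beyond the threshold (0.72 ± 0.31 SE, edgeR adjusted p = 0.0922), nor did Akt1 (-0.52 ± 0.28 SE, 0.165) or Igf1r (-0.64 ± 0.46 SE, 0.31), called only in Db islets. Insr (0.16 ± 0.34 SE) and Irs1 (-0.08 ± 0.44 SE) were the nearest to equal. Genotype, age and sequencing table differ together between these comparisons and cannot be told apart.

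To show what moved most like each member, log2 CPM was centred within each table and the root mean square difference taken over the 14 libraries for 12158 genes. The nearest gene to Irs2 was Slc38a10, an amino acid transporter family member, at 0.26, where Irs2 itself varied by 0.69. Igf1r was nearest to Mical2 (0.20, against its own 0.53), Irs1 to Nol9 (0.19 against 0.45), Foxo1 to Zbtb7a (0.16 against 0.38) and Pik3r1 to Nck2 (0.17 against 0.31). Members that varied little had closer neighbours, Pafah1b1 for Pik3ca and R3hdm2 for Akt1 (0.11 each), Ptpa for Akt2 (0.12) and Hmbox1 for Insr (0.10). No member was among the 3 nearest genes of another.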

How the data were processed

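RNA was sequenced from 14 libraries in 6 groups, which were taken from the sample titles. The authors' deposited tables hold raw counts of reads for each gene, not normalized, for 37310 Ensembl identifiers in 3 tables. The tools named are HTSeq 0.7.1, GSNAP, cutadapt 1.13 and DESeq2 1.16.0 and the builds mm9 and NCBIM37, per the submitters' processing notes, which give neither their roles nor a strand setting. Per the labels' protocols, Trizol was used for islet RNA and the SMARTer Stranded kit for the libraries. Among the columns of β-cells, 2 carry the same heading, number 3, and are called neonatal replicates 3a and 3b. Rows that name no gene were left out, and gene rows held 24.5% to 43.1% of all rows' counts in the β-cell table and 35.1% to 44.3% in the Db table. The TSC1 KO table has no such rows. Symbols came from a later annotation, GENCODE M21, and matched 32620 identifiers (87.4%).

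The 3 comparisons were each fitted within a table by edgeR 4.0.16 in R 4.3.3: filterByExpr (minimum count 10, minimum total 15), TMM scaling and a robust two-sided quasi-likelihood F test, with Benjamini-Hochberg adjustment over all genes and a threshold of 0.05. The TSC1 KO and Db effects were compared in 1 fit over both islet tables. CPM is the count per library total after TMM scaling. Ratios used CPM per kilobase and two-sided exact permutation tests over libraries. Alternatives were other scalings, no filter, DESeq2 1.42.0, limma 3.58.1 (voom), insulin and mitochondrial genes left out, GC and length trends removed, a replicate block and each library left out. The fits were also run on simulated counts with known fold changes and the same spread for every gene. That run does not show how they behave at the spread of these replicates. Replicate numbers did not pair libraries: same-numbered libraries deviated with a correlation of -0.05 in the TSC1 KO table and -0.04 in the Db table. Members and lists were chosen with earlier results of these data known. The text gives all 9 members, pathway genes that were called (up to 5 per list and direction), 7 paralogues or inhibitors whatever their values, and the nearest genes in pattern. Some genes of the pathway are not reported here. Promoter windows are from RefSeq.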

Additional observations from a re-analysis of the deposited data

Results flagged for a closer look

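Between the TSC1 KO and Db comparisons, 4 of the 9 genes had effects that differed by a test of the difference itself (TSC1 KO minus Db, log2). Of all 15702 genes tested, 31.8% were called in the same test. For Irs2 the difference was -2.91 ± 0.37 SE (edgeR adjusted p = 0.000173), lower in both TSC1 KO libraries than in both RC controls and higher in both Db libraries than in both BKS controls. Foxo1 gave 1.17 ± 0.29 SE (edgeR adjusted p = 0.00967), with both libraries of each islet group moving together, up in TSC1 KO and down in Db islets. Irs2 in TSC1 KO islets (edgeR adjusted p = 0.185) and Foxo1 in Db islets (0.0555) were not called by themselves. Groups did not overlap for 67.7% of all genes in the TSC1 KO comparison and 74.7% in the Db comparison. Pik3ca gave 0.94 ± 0.32 SE (edgeR adjusted p = 0.0407) and Akt2 -0.87 ± 0.29 SE (edgeR adjusted p = 0.036), calls lost in 11 and 7 of 16 alternatives. The comparisons differ in genotype, age and table, which cannot be told apart. Groups of 2 or 3 libraries are too small for a test of single outlying libraries.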

How the results depend on the processing

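Igf1r in adult β-cells, Irs2, Igf1r and Akt1 in Db islets and the Irs2 difference between the TSC1 KO and Db effects kept direction and call under every alternative run. The number of members called in adult β-cells went from 3 to 1 with limma-voom and to between 1 and 3 with 1 library left out. In TSC1 KO islets it went from 2 to 0 with library size only or with GC and length trends removed, to 1 with DESeq2 and to between 0 and 2 with 1 library left out. For the difference between the effects it went from 4 to 2 with library size only, DESeq2, or GC and length trends removed, and to between 2 and 4 with 1 library left out. The cause of each change was not tested.

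Pathway genes called in adult β-cells went from 6 to 3 with limma-voom (4 to 8 without 1 library), and in Db islets from 16 to 10 with library size only (6 to 17 without 1 library). With 1 library left out they ranged from 0 to 14 in TSC1 KO islets, where 11 were called, and from 7 to 20 for the difference between the effects, where 16 were. FoxO-linked genes called in adult β-cells went from 2 to 1 with library size only and to 4 with no filter (0 to 4 without 1 library), and ranged from 0 to 5 around 4 in TSC1 KO islets. All genes called numbered 999 in adult β-cells, 1588 with DESeq2 and 405 to 1380 without 1 library, against 2703 and 0 to 4015 in TSC1 KO islets, 6919 and 4419 to 6666 in Db islets and 4988 and 2910 to 5909 for the difference. Library size only moved the median of all genes by -0.19, -0.25, 0.29 and -0.47 in these 4 tests.

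Signs turned for genes that were not called, and for Foxo6 in Db islets. With library size only these were Pik3r1 (-0.06) and Akt1 (-0.11) in adult β-cells, Pik3ca (-0.14) and Akt1 (-0.01) in TSC1 KO islets, Insr (0.05) and Irs1 (0.26) in Db islets and Insr (-0.31) for the difference. With GC and length trends removed they were Akt2 (0.06) in adults, Pik3ca (-0.16) in TSC1 KO, Akt2 (-0.05), Pik3r3 (0.07), Foxo3 (-0.44), Foxo4 (-0.06) and Foxo6 (0.15) in Db, and Insr (-0.17) for the difference, and with no filter Irs1 (0.01) in Db. With 1 library left out, turned values were -0.01 and -0.02 for Pik3r1 (-0.02 to 0.20 over all libraries left out), 0 for Akt1 (0 to 0.13) and -0.16 for Foxo4 (-0.16 to 0.92) in adults. In TSC1 KO islets they were 0.18 and 0.23 for Insr (-0.38 to 0.23), 0.17 for Irs1 (-0.30 to 0.17) and -0.39 for Pik3r3 (-0.39 to 1.00). In Db islets they were 0.24 and 0.06 for Irs1 (-0.31 to 0.24) and -0.14 and -0.03 for Foxo3 (-0.14 to 0.31). For the difference they were -0.11 and -0.27 for Insr (-0.27 to 0.37) and 0.17, 0.05 and 0.14 for Irs1 (-0.40 to 0.17). Of the ratios, Igf1r to Insr in TSC1 KO turned to -0.02 without TSC1 KO replicate 2 (0.53 with all, up to 1.08) and Irs2 to Irs1 in adults to -0.10 without neonatal replicate 3a (0.57 with all, up to 1.06).

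A replicate block, which pairs libraries that share only a number, left 0 of 2 members called in TSC1 KO islets (Pik3r1 0.0576 and Foxo1 0.0818, edgeR adjusted p) and 1648 genes in all. It left 2 of 4 for the difference between the effects, and in Db islets all 4. No paired analysis was possible for β-cells because the neonatal columns carry no unique numbers. Library totals were lowest in the TSC1 KO and RC control libraries (3507929 to 6212629 gene counts), and Irs1 and Igf1r stood at 12.9 CPM or below in RC and BKS controls. Without 1 library an arm of 1 is assumed to vary like the other groups.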
